A study of Mus musculus with 2 samples.

Results

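Polycomb proteins silence genes through a pair of chromatin complexes, and the binding of the transcription factor Nanog around 10 genes that encode their parts is described here. Of the 10 genes, 5 encode parts of Polycomb repressive complex 1 (PRC1): Rybp, Rnf2, Pcgf6, Kdm2b and Phc1. The other 5 encode parts of Polycomb repressive complex 2 (PRC2): Jarid2, Mtf2, Ezh2, Eed and Suz12. They are 10 of the 21755 protein-coding genes on chromosomes 1 to 19 and X, and they were chosen with the numbers of Nanog peaks around them already known. The counts of peaks near them are therefore a description, and no test was made on them.

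The study mapped Nanog by chromatin immunoprecipitation and sequencing (ChIP-seq) in Bruce-4 cells, a line of mouse embryonic stem cells (ESCs) grown in serum with leukemia inhibitory factor. It holds 1 immunoprecipitated sample and 1 input sample, both untreated and without a replicate, and the input was not analysed here. The list of peaks has 8737 distinct intervals, of which 8735 lie on chromosomes 1 to 19 and X, with a median width of 319 bp. It holds only positions, which leaves the height of each peak and its reads unseen, and sites that did not pass the peak call cannot be seen in it.

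PRC1 places ubiquitin on histone H2A and PRC2 places methyl groups on lysine 27 of histone H3, both marks of silenced genes. In ESCs these complexes hold developmental genes silent while the cells stay pluripotent, and Nanog is a homeodomain transcription factor of the network that keeps them so. Rnf2 is a catalytic ubiquitin ligase of PRC1, Rybp and Pcgf6 are parts of its variant forms, Kdm2b brings a variant form to unmethylated CpG islands, and Phc1 belongs to its canonical form. Ezh2 is the methyltransferase of PRC2, Eed and Suz12 are core parts that its activity needs, and Jarid2 and Mtf2 are accessory parts that help to bring it to chromatin.

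Sequences of 7 peak regions are shown first, because the description of the Rybp, Jarid2, Phc1 and Kdm2b loci turns on them. All are from the mouse genome build mm10 (GRCm38), on the plus strand, and a peak longer than 300 bases is shown by its central 300 bases. Capitals mark exact matches on either strand to the octamer ATGCAAAT bound by Oct4, to the Sox motif CCTTTGT or CCATTGT, to the Klf motif GGGTGTGG or GGGCGTGG, to the Oct4-Sox2 composite TTGTNATGC or to the Myc E-box CACGTG. The composite shares TTGT with the Sox motif and ATGC with the octamer, so a single stretch can hold more than 1 of them. The Nanog core CCATTA and the Esrrb motif TCAAGGTCA were searched too and have no match in the 7 sequences. The peak nearest to the Rybp start site, chr6:100270831-100271130, is shown because it holds the only composite among the peaks of the 10 genes. The second Rybp sequence, chr6:100459675-100459770, is a stretch of 6 units of the 16-bp repeat that fills a distant peak.
Rybp, 16.5 kb downstream of the start site: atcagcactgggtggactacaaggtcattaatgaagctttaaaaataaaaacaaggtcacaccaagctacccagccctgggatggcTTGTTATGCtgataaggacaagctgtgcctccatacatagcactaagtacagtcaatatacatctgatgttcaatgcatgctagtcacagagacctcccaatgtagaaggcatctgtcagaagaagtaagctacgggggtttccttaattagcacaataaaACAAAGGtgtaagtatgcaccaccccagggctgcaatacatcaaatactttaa
Rybp, part of the peak 172.3 kb upstream: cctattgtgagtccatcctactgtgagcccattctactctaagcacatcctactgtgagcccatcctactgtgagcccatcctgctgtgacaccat
Next are a pair of peaks beside the start of Jarid2, chr13:44728532-44728831 and chr13:44733631-44733918, which differ in base composition. The first has 2 of its 3 Sox matches within the bases shown, and the second has none of the motifs.
Jarid2, 793 bp upstream: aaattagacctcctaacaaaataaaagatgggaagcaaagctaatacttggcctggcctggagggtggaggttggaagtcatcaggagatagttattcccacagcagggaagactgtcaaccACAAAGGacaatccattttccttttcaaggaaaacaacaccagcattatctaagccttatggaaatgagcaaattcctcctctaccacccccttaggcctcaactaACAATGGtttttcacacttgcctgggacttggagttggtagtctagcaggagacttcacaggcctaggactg
Jarid2, 4.3 kb downstream: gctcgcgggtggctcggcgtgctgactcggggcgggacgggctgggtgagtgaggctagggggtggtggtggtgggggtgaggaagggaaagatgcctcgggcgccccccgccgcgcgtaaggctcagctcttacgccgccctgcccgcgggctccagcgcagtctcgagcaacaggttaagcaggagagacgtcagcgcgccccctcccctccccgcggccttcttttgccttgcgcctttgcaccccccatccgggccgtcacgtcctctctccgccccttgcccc
Last are the 3 peaks nearest to PRC1 start sites, chr6:122340447-122340711 and chr6:122341091-122341355 at Phc1 and chr5:122991336-122991585 at Kdm2b.
Phc1, 18 bp upstream: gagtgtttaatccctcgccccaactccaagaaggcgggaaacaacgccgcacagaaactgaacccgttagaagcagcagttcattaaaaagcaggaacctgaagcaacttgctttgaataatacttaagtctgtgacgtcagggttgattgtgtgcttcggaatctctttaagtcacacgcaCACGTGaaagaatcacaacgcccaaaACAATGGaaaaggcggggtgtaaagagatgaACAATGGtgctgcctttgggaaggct
Phc1, 662 bp upstream: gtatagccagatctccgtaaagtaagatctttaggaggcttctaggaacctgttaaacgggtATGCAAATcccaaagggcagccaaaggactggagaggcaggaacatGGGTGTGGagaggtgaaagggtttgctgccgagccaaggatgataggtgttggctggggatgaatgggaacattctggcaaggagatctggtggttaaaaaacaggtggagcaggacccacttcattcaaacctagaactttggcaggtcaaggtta
Kdm2b, 1637 bp upstream: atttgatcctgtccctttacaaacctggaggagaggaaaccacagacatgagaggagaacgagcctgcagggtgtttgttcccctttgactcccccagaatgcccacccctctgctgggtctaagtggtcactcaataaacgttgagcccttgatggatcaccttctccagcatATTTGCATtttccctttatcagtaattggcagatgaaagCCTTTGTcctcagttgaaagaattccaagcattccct

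Peaks were counted in a pair of ways: those whose middle base lay within 100 kb of the start site of the gene, the 5′ end of its annotated extent in GENCODE vM21, and those for which the gene had the nearest protein-coding start site. Of the 10 genes, 9 had at least 1 peak within 100 kb, where 54.8% of all protein-coding genes did. At least 3 peaks lay within 100 kb of 7 of the 10 genes, against 11.4% of all genes. Rybp and Jarid2 had at least 5, against 1.94% of all genes. The list held 30 distinct peaks within 100 kb of the 10 genes and 33 for which one of them was nearest, 41 peaks in all, and no peak was counted for more than 1 of the 10 genes. The mean over the 10 genes was 3.0 peaks within 100 kb, beside 1.001 over all protein-coding genes. Since the genes were chosen on these counts, nothing is read from the distance between such shares.

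**Figure D1:**
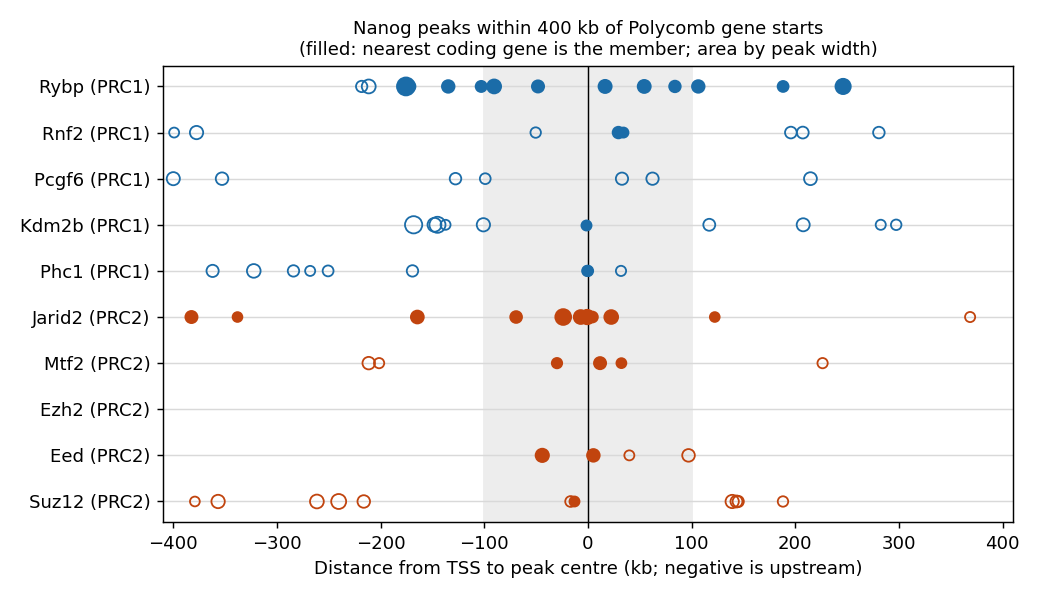
Nanog peaks (circles, area by width) within 400 kb of the start site of each of the 10 genes, 1 gene a row, by distance in kb (horizontal axis, negative upstream), filled where the gene is the nearest coding gene, blue for PRC1 and orange for PRC2, with the 100 kb on each side shaded. Filled circles spread far on both sides at Rybp (12) and Jarid2 (10), and the row of Ezh2 is empty.

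The catalytic part of PRC1, Rnf2, had 3 peaks within 100 kb, at 29.4 and 34.2 kb downstream and 50.4 kb upstream. The first pair, 331 and 250 bp wide, had their middle bases in introns of Rnf2 itself. The first of them overlapped an Rnf2 exon and was 446 bp from another annotated Rnf2 transcript start. Rnf2 was the nearest protein-coding gene of both. The upstream peak had Fam129a as its nearest protein-coding gene, 19.8 kb from its start. That peak was centred 458 bp from the start of Gm28181, a long noncoding RNA gene.

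Pcgf6, which takes the place of other Pcgf proteins in a variant PRC1, also had 3 peaks within 100 kb but was the nearest gene of none. They lay 32.8 and 62.2 kb downstream and 99.1 kb upstream, and were nearest to Nt5c2, Ina and Calhm1. Pcgf6 sits among close neighbours, with 7 other protein-coding start sites within 100 kb and a stretch of only 26.3 kb in which it is the nearest.

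Kdm2b, a histone demethylase with a domain that binds unmethylated CpG, had a single peak within 100 kb, 1637 bp upstream of its start site and 250 bp wide. It lay in an intron of the overlapping genes A930024E05Rik and Gm44574, and it held an octamer and a Sox match. A further 6 peaks lay between 100.9 and 168.2 kb upstream or at 117.0 kb downstream, so that 7 peaks were counted within 200 kb, and none of the 6 had Kdm2b as its nearest gene. Counted from every transcript start of protein-coding genes, 3 peaks lay within 100 kb, and Kdm2b was the nearest gene of 2.

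Phc1, a polyhomeotic protein that polymerises canonical PRC1, had the closest peak of the 10 genes. The middle of that peak was 18 bp upstream of the start site, and the peak overlapped the 5′ end of the gene. A second peak, of the same width of 265 bp, lay 662 bp upstream with a gap of 0.379 kb between them. The start-site peak held 2 Sox matches and a Myc E-box, and the upstream one held an octamer and a Klf match. The third peak within 100 kb, 31.9 kb downstream, was centred 11 bp from the start site of the neighbouring gene M6pr. Phc1 was the only 1 of the 9 genes matched to a RefSeq promoter window (250 bases before to 50 after the start) whose window a peak overlapped, by 31 bp. RefSeq places the Phc1 start elsewhere, and from there the middle of the closest peak was 352 bp upstream. Among all genes with such a window, 1.48% had one overlapped by a peak, and Rybp had no window to compare.

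Mtf2, a Polycomb-like protein that helps PRC2 to bind CpG-rich DNA, had 3 peaks within 100 kb and was the nearest gene of all 3. They lay 29.9 kb upstream and 11.6 and 32.2 kb downstream, the latter pair in introns of Mtf2, and the peak at 11.6 kb was 865 bp from another annotated Mtf2 transcript start. They had a narrow range of base composition, from 42.4% to 43.0% G and C, and held none of the motifs searched.

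Eed, which binds methylated histone H3 and stimulates the enzyme, had 4 peaks within 100 kb, at 44.1 kb upstream and 5.197, 39.9 and 97.0 kb downstream. Eed was nearest to the first pair. The peak 39.9 kb downstream lay in the untranslated region of Hikeshi, 110 bp from the start of that gene, and the most distant one lay in an intron of Ccdc81.

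Suz12, the scaffold of the PRC2 core, had 2 peaks within 100 kb, 16.8 and 13.2 kb upstream and 3.28 kb apart. Suz12 was nearest to the inner one, and Utp6 was nearest to the outer one. A further 4 peaks lay from 139.1 to 188.1 kb downstream.

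Ezh2, the enzyme of PRC2, had no peak within 100 kb and none within 400 kb, and its closest peak was 898.2 kb away. Of all protein-coding genes, 95.9% had a peak at least as close. Ezh2 was alone among the 10 genes in having none within 100 kb, as did 9830 of the 21755 protein-coding genes. What the list shows is that no interval passed the peak call there.

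**Figure D2:**
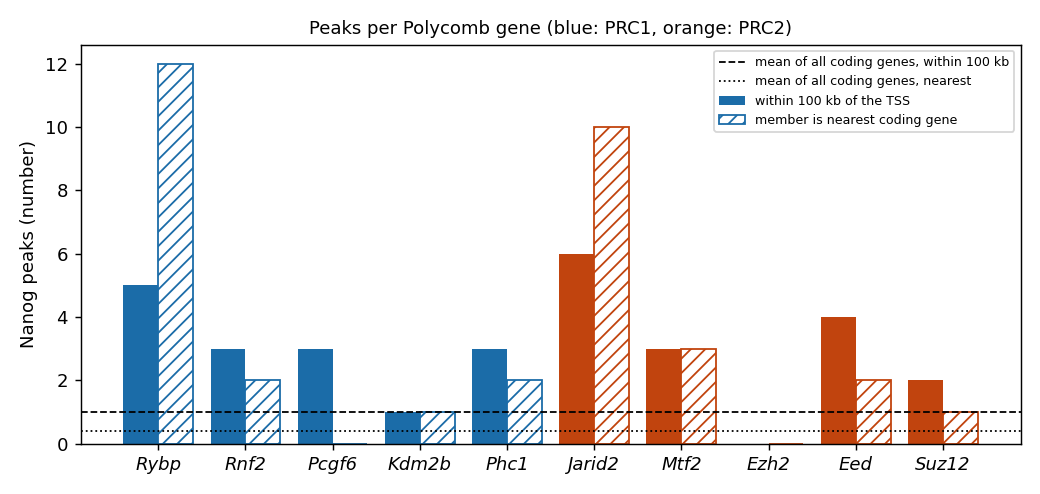
Number of Nanog peaks (vertical axis) within 100 kb of the start site (filled bars) and with the gene as nearest coding gene (hatched bars), for 5 PRC1 genes in blue and 5 PRC2 genes in orange, with the means of all coding genes as a dashed line (1.001 within 100 kb) and a dotted line (0.402 nearest). Rybp (5 and 12) and Jarid2 (6 and 10) stand above the other genes, which have 0 to 4 peaks within 100 kb.

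Rybp, a zinc finger protein that binds ubiquitylated histone H2A and joins variant PRC1, lies at chr6:100228565-100287485 on the minus strand (ENSMUSG00000072872.3). It had 5 peaks within 100 kb and was the nearest protein-coding gene of 12. Only 5 of the 21755 genes were nearest to 12 or more peaks: Arhgap21 with 15, Smad7 with 13, and Rybp, Serp2 and Tbl1xr1 with 12 each. At least 10 nearest peaks were counted for Rybp and Jarid2 among the 10 genes and for 0.0644% of all genes, and at least 1 for 8 of the 10 genes and 24.7% of all genes. Within 100 kb Rybp ranked lower, since 421 genes had at least 5 peaks there.

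On the upstream side the 6 peaks nearest to Rybp lay at 48.2, 90.5, 103.0, 134.8, 172.3 and 175.6 kb from its start site, all of them intergenic. Their widths in the same order were 366, 477, 304, 390, 363 and 789 bp. On the downstream side the other 6 lay at 16.5, 54.2, 83.9, 106.4, 188.2 and 246.1 kb, with widths of 425, 418, 328, 389, 295 and 572 bp. The 12 were thus split evenly over both sides of the start site and covered 422.4 kb. The peaks at 16.5 and 54.2 kb lay in introns of Rybp, and the other 4 lay beyond the 3′ end of the gene. None was within 5 kb of the start site of the gene, although the peak at 54.2 kb overlapped an Rybp exon and was 110 bp from another annotated Rybp transcript start.

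Successive peaks around Rybp were from 2.71 to 81.5 kb apart, with a median of 37.2 kb. The shortest of the 11 gaps after the one of 2.71 kb was 12.1 kb, so most of the peaks stood alone. They were wide for the list: the median width was 389.5 bp, and 10 of 12 were at or above the median of 319 bp, as were 50.2% of all peaks. The peak 175.6 kb upstream ranked 35 by width among all 8735 peaks and the one 246.1 kb downstream ranked 320.

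The pair of peaks farthest upstream of Rybp differed from the other 10 in sequence. Shifted by 16 bases, 72.6% of the bases of the peak at 175.6 kb and 76.7% of those of the peak at 172.3 kb matched themselves, and the excerpt printed above shows 6 such units in a row. The other 10 had a best match of at most 36.2% at any shift from 10 to 60 bases. In the whole list, 46 peaks (0.527%) reached 60%. Without such peaks Rybp had 10 nearest peaks and all 5 within 100 kb. The part of the repeated sequence in the calling of these 2 peaks was not tested.

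**Figure D3:**
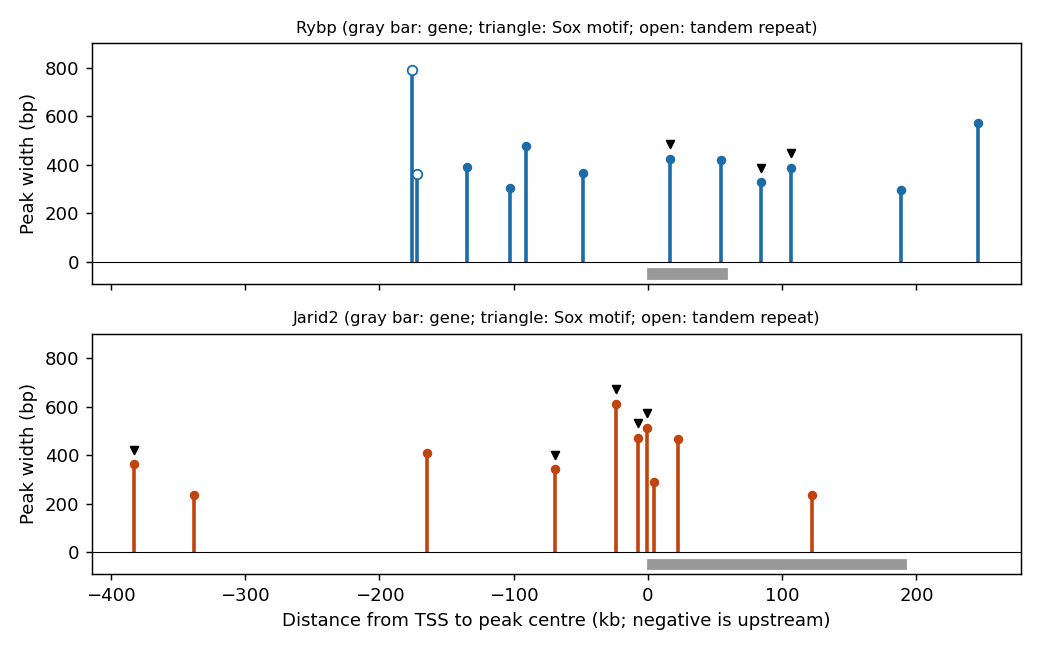
Width in bp (height of each line, vertical axis) of the peaks nearest to Rybp (12) and Jarid2 (10) by distance from the start site in kb (horizontal axis, negative upstream), with a triangle above a peak that holds a Sox motif, an open circle on a peak of tandem repeats and the gene as a gray bar. The widest peak of Rybp, at 789 bp, is one of its 2 open circles, and Sox motifs mark 3 of the 12 Rybp peaks and 5 of the 10 Jarid2 peaks.

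Rybp stands far from other protein-coding genes. Its protein-coding neighbours are Prok2, whose start site is 561.1 kb away, and Shq1, 383.7 kb away, so that Rybp is the nearest coding gene over a stretch of 472.4 kb. Over that stretch 12 peaks make 25.4 per Mb, where all protein-coding genes together have 3.32 per Mb. A total of 1082 genes were nearest over a stretch at least as long as that of Rybp, with a median of 1 nearest peak. Of these, 3 had 12 or more: Rybp itself, Arhgap21 and Tbl1xr1. Tbl1xr1, with the same count as Rybp, had a stretch of 2389 kb and 5.02 peaks per Mb, and Serp2 had 38.6 per Mb. When all annotated genes competed for a peak, not only protein-coding ones, Rybp was nearest to 3 of the peaks. The peaks thus lie in a wide region in which Rybp has the nearest coding start, and which gene they act on was not measured.

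Jarid2 was the PRC2 gene with most peaks. It lies at chr13:44729474-44921643 on the plus strand, had 6 peaks within 100 kb, and was nearest to 10. Upstream they lay at 793 bp and at 7.02, 23.9, 69.3, 164.6, 338.1 and 382.5 kb, and downstream at 4.3, 22.4 and 122.3 kb, the latter 3 in introns of Jarid2. Unlike Rybp, Jarid2 thus had peaks on either side of its start site within 5 kb, and 7 of its 10 peaks were upstream. From its RefSeq starts the closest peak was 2093 bp upstream of one and 2503 bp downstream of another. The upstream peak at 23.9 kb, 612 bp wide, was the only 1 of the 41 that the list gives on more than 1 line. Jarid2 is far from other protein-coding genes as well, with Cd83 at 944.7 kb and Dtnbp1 at 272.7 kb. Its stretch of 608.7 kb held 16.4 peaks per Mb. When all annotated genes competed for a peak, Jarid2 was nearest to 5. The peak 338.1 kb upstream was centred 222 bp from the start of Gm33958, a long noncoding RNA gene. Of all protein-coding genes, 123 had at least 6 peaks within 100 kb and 14 were nearest to at least 10.

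**Figure D4:**
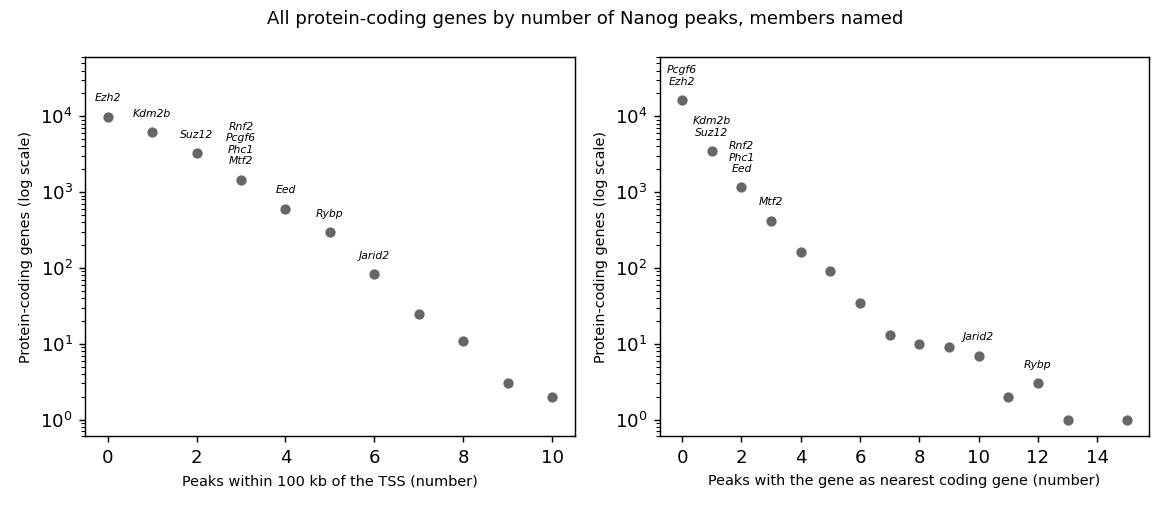
Number of protein-coding genes (vertical axis, log scale) by the number of Nanog peaks within 100 kb and by the number for which the gene is nearest (horizontal axes), with each of the 10 genes named at its count. For nearest peaks the counts fall from 16381 genes with none to 3 genes with 12, among them Rybp.

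Between the complexes the counts were equal at 100 kb, with 15 peaks around the 5 PRC1 genes and 15 around the 5 PRC2 genes. The nearest-gene counts were 17 and 16. Within 50 kb the PRC2 genes had 13 peaks and the PRC1 genes 9, while within 200 kb they had 21 and 30, so the order of the complexes changed with the limit. Of the 15 PRC1 peaks, 3 lay within 5 kb, 6 from 5 to 50 kb and 6 from 50 to 100 kb, and the 15 PRC2 peaks fell 2, 11 and 2 in the same bands. The median distance of the closest peak was 16.5 kb for PRC1 genes and 11.6 kb for PRC2 genes, beside 85.3 kb for all genes. The nearest-gene sums rested largely on 1 gene a complex: without Rybp the PRC1 genes had 10 peaks within 100 kb and 5 nearest, and without Jarid2 the PRC2 genes had 9 and 6. With 1 sample and 5 genes a side, no difference between the complexes was tested.

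At the limit of 100 kb, the outermost peaks counted were the one 99.1 kb upstream of Pcgf6 and the one 97.0 kb downstream of Eed. Just beyond it were the peaks 100.9 kb upstream of Kdm2b and 103.0 kb upstream and 106.4 kb downstream of Rybp.

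Of the 30 peaks within 100 kb, 5 were within 5 kb of the start site. Over all protein-coding genes, 1450 of the 21767 pairs of a gene and a peak within 100 kb were that close. A peak lay within 5 kb of 3 of the 10 genes, Kdm2b, Phc1 and Jarid2, beside 6.25% of all protein-coding genes. Of the 30 peaks within 100 kb, 15 were upstream and 15 downstream, and 9 lay inside the gene they were counted for. By the annotation at the middle base, 8 of the 15 PRC1 peaks were intergenic and 7 intronic, and of the 15 PRC2 peaks 7 were intergenic, 7 intronic and 1 in an untranslated region. Another protein-coding gene was nearer to 8 of the 30: Ina, Nt5c2, Calhm1, M6pr, Fam129a, Ccdc81, Hikeshi and Utp6, 1 peak each. For these sides, annotations and neighbours no share over all peaks is given here, so they are not read as a trait of these peaks. Only 2 of the 41 peaks (4.88%) had their middle base in sequence masked as a repeat in the reference, beside 20.4% of all peaks. Both were PRC2 peaks, and the mask did not cover the middle base of the 2 tandem-repeat peaks of Rybp.

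Base composition set 4 of the 41 peaks apart. CpG dinucleotides are rare in most of the mouse genome and frequent in CpG islands. A ratio of observed to expected CpG above 0.6 was the only measure used here, and the peaks were not called as islands. The 4 peaks above that ratio were the Phc1 peak at its start site (0.762), the Phc1 peak at the start of M6pr (0.704), the Eed peak at the start of Hikeshi (0.716) and the Jarid2 peak 4.3 kb downstream (0.787). The last, with 71.5% G and C, lay 266 bp from another annotated Jarid2 transcript start. G and C made up 46.8% of the Phc1 start-site peak, 55.9% of the peak at M6pr and 60.2% of the peak at Hikeshi. All 4 were within 500 bp of a start of a coding transcript, where 6 of the 41 peaks lay. The other 37 peaks had ratios of 0.470 or less, and in the whole list 5.42% of peaks were above 0.6.

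**Figure D5:**
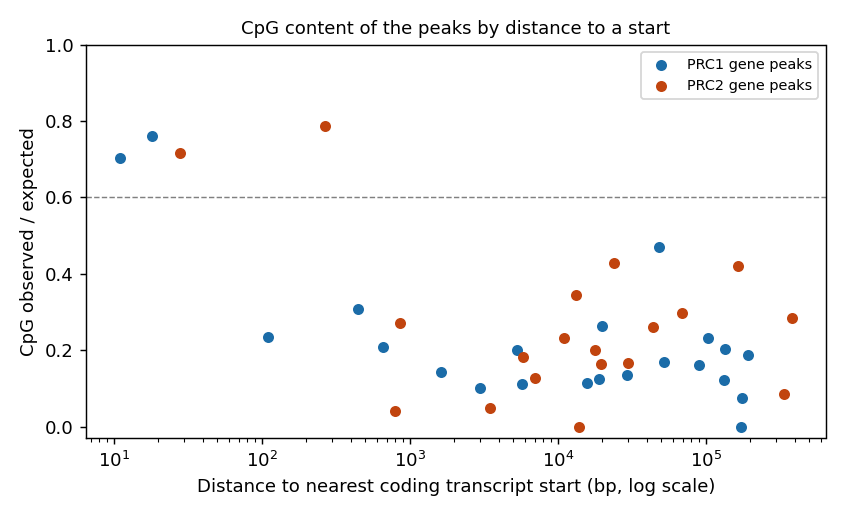
Ratio of observed to expected CpG (vertical axis) in each of the 41 peaks against the distance to the nearest start of a protein-coding transcript (horizontal axis, bp on a log scale), in blue for PRC1 and orange for PRC2 genes, with a dashed line at 0.6. The 4 peaks above it are all within 266 bp of such a start, and the other 37 are at or under 0.470.

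The sequence of the peaks was not used to choose the genes. The motifs searched were chosen with earlier results of these data known. A Sox motif was found in 10 of the 30 peaks within 100 kb, or 33.3% (exact Clopper-Pearson 95% interval 17.3 to 52.8%, for counting error only). The share was 28.2% over all 8735 peaks, within that interval. It was 11.6% over stretches of equal width 1 kb beyond the edges of all peaks, below the interval. Over such stretches beside the 30 peaks themselves it was 10.0% (6 of 60, 3.76 to 20.5%), and that interval overlaps the one of the peaks. The PRC1 and PRC2 peaks both had 5 of 15. Jarid2 had several copies in a peak, with 3 matches each in the peaks at 793 bp and 7.02 kb upstream. The octamer was found in 4 of 30 (13.3%, 3.76 to 30.7%) beside 5.72% of all peaks. Those 4 were the peaks 48.2 kb upstream of Rybp, 1637 bp upstream of Kdm2b, 662 bp upstream of Phc1 and 23.9 kb upstream of Jarid2.

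The Nanog core was in 5 of 30 (16.7%, 5.64 to 34.7%) beside 18.1% of all peaks and 13.0% of the flanking stretches. The core is short, and 4 of the 12 peaks nearest to Rybp held it, those at 134.8 kb upstream and at 83.9, 188.2 and 246.1 kb downstream. The Klf motif was in 4 of 30 (13.3%) beside 11.4% of all peaks, and the Myc E-box in 2 of 30 (6.67%), at Phc1 and Rnf2, beside 4.24%. The composite was in 1 of 30 (3.33%, 0.0844 to 17.2%), the Rybp peak at 16.5 kb, beside 6.12% of all peaks, and that peak also held a separate Sox match. No peak of the 30 held the Esrrb motif, which allows a share of up to 11.6%, and 3.53% of all peaks held it. At 30 peaks, none of the 7 motifs had a share whose interval left out the share of all peaks.

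A further 36 Polycomb genes were counted to place the 10 among their partners. Of these, 26 (72.2%) had a peak within 100 kb and 6 (16.7%) had at least 3, with a mean of 1.39 peaks. Over all protein-coding genes these shares were 54.8% and 11.4%, and the mean was 1.001. A peak within 100 kb was found for all 8 of the other PRC2 genes and for 15 of the 22 other PRC1 genes (68.2%). It was found for 3 of the 6 genes (50.0%) of the PR-DUB complex and of H3K27 demethylases. Kdm6b, which removes the mark that PRC2 places, had 5 peaks and was nearest to 4 of them. Epop and Pcgf2, on the same chromosome, shared the same 4 peaks, 3 of them nearest to Mllt6, and Cbx7, Rbbp4 and Aebp2 had 3 each. The only peak within 5 kb of a start site among the 36 was 80 bp upstream of Rbbp4, a histone-binding part of PRC2. None of their 42 distinct peaks was also within 100 kb of one of the 10 genes. None of the 36 was nearest to as many peaks as Rybp or Jarid2. Since the 10 genes were chosen with their counts known, nothing is read from how the 36 compare with them.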

How the data were processed

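Nanog ChIP-seq was made from 1 immunoprecipitated sample of Bruce-4 ESCs, with an input left out of all counts. By the methods of the paper, the authors inspected reads with FastQC, aligned them to mm10 with Bowtie2, removed low-quality, duplicate, mitochondrial and blacklisted reads with BEDtools and SAMtools, and called peaks with MACS2. The threshold of MACS2 and the use of the input as control are not given in the sources used here. The peak list that the authors deposited gives chromosome, start and end in bp, and the read depth behind a peak cannot be taken from it.

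From the 8860 lines, distinct intervals were counted once. Start sites came from GENCODE vM21 and sequence from GRCm38, promoter windows from RefSeq (GRCm38.p6). Distances run from a start site to the centre of the peak. Genes, gene lists and the motifs searched were chosen with earlier results of these data known, and no p-value was computed. Named genes were the 10 genes, the nearest genes of their peaks, the neighbours of Rybp, other Polycomb genes with a peak within 5 kb or at least 3 within 100 kb, and genes nearest to at least as many peaks as Rybp. The repeat-like peaks and the neighbours of Jarid2 were named after their values were seen. Motifs were searched without mismatch on both strands. The counting was checked on simulated data. Python 3.11.15, pandas 2.3.3, numpy 2.4.6, scipy 1.17.1, pysam 0.24.0 and matplotlib 3.10.9 were used. Alternatives changed the distance limit, the gene set, the start sites, the lines counted, merging within 300 bp, the point of the peak, its width and the sequence window.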

Additional observations from a re-analysis of the deposited data

How the results depend on the processing

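A total of 59 values were computed again with another choice, and 45 differed by at most 1.5 times or lay inside the interval, while 14 moved further. The share of peaks with a Sox motif did not move beyond its interval. With a limit of 50 kb, Rybp had 2 peaks and the PRC1 genes 9, and with 200 kb they had 11 and 30. When all annotated genes competed, the nearest counts were 3 for Rybp, 6 for the PRC1 genes and 8 for the PRC2 genes. The list has no strength column, so peaks at or above the median width stood in for a stricter threshold. They left 8 PRC1 and 9 PRC2 peaks within 100 kb, and 11 and 10 as nearest, and 6 of the 10 genes with a peak within 100 kb in place of 9, since Kdm2b, Phc1 and Suz12 lost theirs. Alternatives chosen after seeing the data left out 1 gene or the tandem-repeat peaks. Without Rybp the PRC1 genes were nearest to 5 peaks, and without Jarid2 the PRC2 genes had 9 peaks within 100 kb and were nearest to 6. Beyond the settings' own construction (fewer peaks, fewer genes, more competing genes), the cause was not tested. No paired analysis was made, because the single immunoprecipitated sample has no replicate and its input was not analysed. The list does not show the depth behind a peak, and one under the threshold of the call is not listed.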
